A study of Mus musculus with 24 samples.

Results

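The 55 genes described here encode the lysosome, the autophagy machinery and the coats and carriers that sort cargo between endosomes and lysosomes. They are a list of named genes, out of 45616 genes and unnamed transcripts measured on the arrays, drawn up with earlier results of these data known. They comprise 2 MiT/TFE transcription factors, 5 lysosomal membrane proteins, 21 acid hydrolases and their cofactors (8 cathepsins, 8 glycosidases and sulfatases, and a sphingolipid group of 5), 5 subunits of the V-ATPase proton pump, 14 autophagy genes and 8 sorting genes. The sphingolipid group is Psap, Gm2a, Asah1, Smpd1 and Grn, of which Grn encodes progranulin and no hydrolase. RNA was measured in mouse tumour lines grown in culture, each line on 3 or 4 one-colour arrays. B16-M is the parental B16-F1 melanoma line carrying GFP, and B16-D is the dormant line recovered from syngeneic mice that kept minimal residual disease under immunotherapy. B16-D-733, B16-D-735 and B16-D-739 were taken as the second generation of dormant melanoma lines, recovered from the brain, and which of the study's numbered brain lines each one is cannot be read from its label. M0-p20 and J365-p20 are labelled as leukemia cells only, and were taken as the parental myeloid line DA1-3b and as its dormant line recovered late in dormancy. No line carried a further treatment in culture as far as the labels say. All lines had been amplified in vitro before RNA was taken, so the values describe cultured cells and not cells in a dormant tumour. Each line is a single isolate, and its arrays were not stated to come from separate cultures, so the p-values below measure the spread between arrays, which may be technical.

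Lysosomes are acidified by the V-ATPase, which pumps protons across the lysosomal membrane and so activates the hydrolases inside. Hydrolases reach them through endosomes, where adaptor complexes such as AP-1 and AP-3 and the retromer complex direct the traffic, and autophagy delivers cytoplasmic material to the same compartment. TFEB and TFE3, relatives of the melanocyte factor MITF, switch on many of these genes together through short promoter elements that contain CACGTG. In pigment cells the melanosome is built from the same endosomal route, with AP-3 among its sorting coats.

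Values below are log2 signals relative to the 75th percentile of all spots on the same array, so that 0 marks that percentile, and differences are log2 fold changes with their standard error (SE). Between 46% and 55.8% of spots were well above the background on 23 of the arrays, against 90.3% on B16-D replicate 2, which was left out of the values below unless named. Of the 55 members, 48 were well above the background on every one of the 23 arrays. In every melanoma line 54 were so, the exception being Ctss, and 48 were so in each leukemia line. Pigment genes (Pmel, Mlana, Dct, Tyrp1, Tyr, Sox10) were well above the background on every melanoma array, all 6 of 6. All 5 blood-cell markers (Ptprc, Spi1, Cd53, Laptm5, Coro1a) were so on every leukemia array. In melanoma Ptprc and Laptm5 were so on no array, Spi1 on 1 of 3 B16-M arrays and Cd53 on 1 of 4 B16-D-733 arrays, whereas Coro1a was so on 2 of 3 B16-D arrays and on every array of the other melanoma lines. A 3-array or 4-array design limits the precision of all values.

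In dormant melanoma and in dormant leukemia most of these genes were measured close to their parental level. For B16-D against B16-M no member of the 54 tested passed, while 3.6% of all genes did (limma, Benjamini-Hochberg adjusted over all genes tested). Unadjusted p-values under 0.05 were found for 7 members, beside 4034 of all 24312 genes. Every melanoma comparison below uses the same B16-M arrays as its control. The median change of the members was -0.02, beside -0.04 over all genes. A change within 0.5 in either direction was seen in 51 of the 54 members, beside 18944 of all 24312 genes. The 95% interval lay within 1 log2 unit of no change for 51 of the 54. For J365-p20 against M0-p20 none of 49 members tested passed, beside 1.07% of all genes. Unadjusted p-values under 0.05 were found for 2 members, beside 1582 of all 22968 genes. The members' median change was 0.07, beside -0.02 over all genes, and the interval lay within 1 log2 unit for 47. In simulated data with the means and spreads of these arrays, log2 changes of 0.5 were called for 12% of changed genes in B16-D and 0% in J365-p20. Changes of 1 were called for 48% and 16%. Changed genes in the simulation were drawn from all genes tested, not from the members. By itself the absence of calls thus says little on changes of this size, above all in leukemia. The 95% intervals above bound the members more closely, within 1 log2 unit for most of them.

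The second-generation lines each had 1 or 2 members past the threshold. In B16-D-733, 2 of 54 members passed, both lower (Psap and Ap3d1), beside 5.57% of all genes, of which 3.18% were higher and 2.39% lower. In B16-D-735, 2 of 54 passed, both higher (Ctsk and Smpd1), beside 5.03% of all genes, 3.07% higher and 1.97% lower. In B16-D-739, 1 of 54 passed, Ctsk, higher, beside 3.71% of all genes, 2.15% higher and 1.55% lower. With B16-D replicate 0 included, the shares of members called were near or under those of all genes in each of these lines. Arrays of B16-D-733 and B16-D-739 varied together with the B16-M arrays of the same number. With that number as a block, B16-D-733 kept 1 call, Psap, and B16-D-739 had 2, Ctsk and Psap. The dormant melanoma lines differed among themselves in 6 of 54 members by the moderated F-test, beside 7.03% of all genes: Ctsk, Mcoln1, Psap, Smpd1, Galns and Ap3d1. One array weighed on all of these counts. Without B16-D replicate 0, 3 of 54 members passed in B16-D, beside 4.09% of all genes in the same fit, and 6 in B16-D-733, beside 7.51%. In that fit 5 passed in B16-D-735, beside 6.94%, 4 in B16-D-739, beside 5.03%, and 14 among the dormant lines, beside 9.42%.

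**Figure D1:**
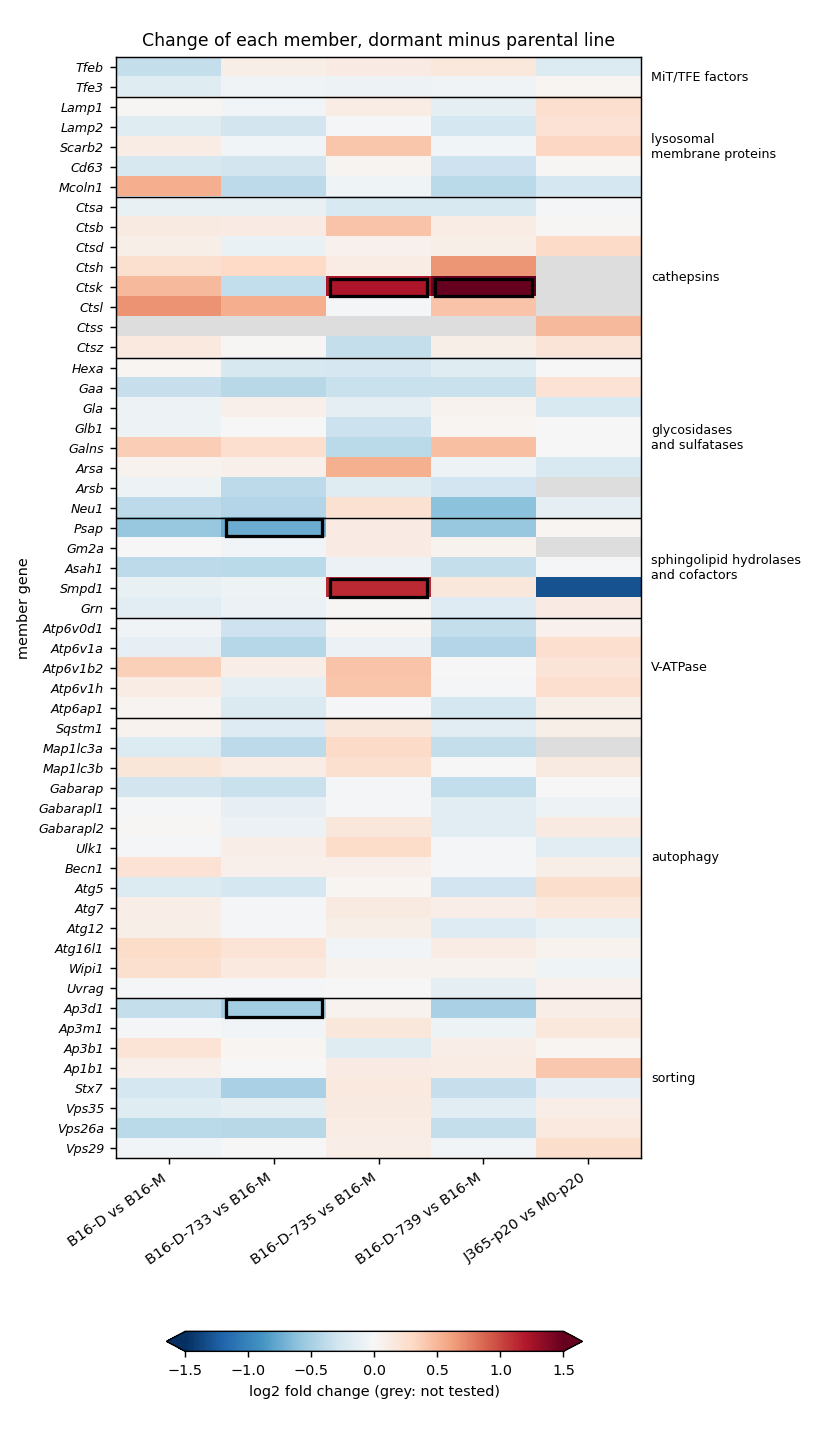
Log2 fold change of each member (rows, grouped by role) in the dormant lines against their parental line (columns); colour gives the change, a black frame marks an adjusted p under 0.05 and grey a gene that was not tested. The 5 framed cells are Ctsk in B16-D-735 and B16-D-739, Smpd1 in B16-D-735, and Psap and Ap3d1 in B16-D-733.

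The members also shifted as a group from array to array within a line. Relative to the mean of the B16-M arrays, the median member stood at 0.32 on B16-D replicate 0, where 43 of 54 members lay above, and at -0.20 and -0.16 on B16-D replicates 1 and 3, where 41 and 42 lay below. The median of all genes on these 3 arrays was -0.10, -0.01 and 0.09. The spread among B16-D arrays was thus larger than any median change of the members in a dormant line, which ran from -0.11 in B16-D-739 to 0.07 in B16-D-735. Replicate 0 was the only B16-D array whose title carried no date, so this spread cannot be told apart from that split. It also had the lowest share of spots well above the background of the 23 arrays, 46%. B16-D-733 has the same split of titles. There the median member stood at -0.07 on replicate 0 and between -0.16 and -0.05 on replicates 1 to 3. Among the leukemia arrays the median member stood at -0.27 on M0-p20 replicate 0 and at 0.28 on M0-p20 replicate 1, relative to the mean of the M0-p20 arrays, and between 0.03 and 0.10 on the J365-p20 arrays. On B16-D replicate 2, the array left out, it was -0.48 relative to B16-M.

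Of the transcription factors, Tfeb had a change of -0.36 in B16-D and Tfe3 of -0.19, and neither passed in any line. The lysosomal membrane proteins gave 1 call, among the dormant lines. Mcoln1, the calcium channel TRPML1 of the lysosomal membrane, was 2.42, 2.30 and 2.49 on the B16-M arrays and 3.35, 2.88 and 2.62 on the B16-D arrays. In B16-D-733 it was 1.82, 1.92, 2.18 and 2.14, in B16-D-735 2.4, 2.48 and 2.14, and in B16-D-739 1.93, 1.86 and 2.20. Every B16-D array was above, and every B16-D-733 and B16-D-739 array below, every B16-M array. Against B16-M the changes were 0.55 (SE 0.18, adjusted p = 0.122 by limma) in B16-D, -0.39 (SE 0.17, adjusted p = 0.235) in B16-D-733 and -0.41 (SE 0.18, adjusted p = 0.32) in B16-D-739. The dormant lines spanned 0.95 (adjusted p = 0.00959 by limma's F-test), and 0.79 with B16-D replicate 2 put back (adjusted p = 0.0546). In leukemia Mcoln1 was 3.13, 3.50, 3.45 and 3.52 on the M0-p20 arrays and 2.97, 3.05 and 3.40 on the J365-p20 arrays, which overlap.

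Lamp2, a heavily glycosylated protein of the lysosomal membrane needed for fusion with autophagosomes, was 3.95, 3.99 and 4.34 in B16-M and 4.23, 3.87 and 3.61 in B16-D. It was 3.81, 3.74, 3.95 and 3.75 in B16-D-733, 4.10, 4.13 and 3.98 in B16-D-735, and 3.74, 3.75 and 3.97 in B16-D-739. Its melanoma lines overlapped, with changes from -0.28 to -0.02. The leukemia arrays gave 1.35, 2.04, 1.86 and 1.60 for M0-p20 and 1.78, 2.15 and 1.88 for J365-p20, again overlapping. Lamp1, Scarb2 and Cd63 did not pass in any dormant line.

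The cathepsins held the largest change of any member. Ctsk, a collagen-degrading cysteine protease known from osteoclasts, was -3.57, -3.94 and -3.71 in B16-M and -2.69, -3.27 and -3.80 in B16-D. B16-D-733 had -3.95, -4.52, -4.01 and -3.98. B16-D-735 had -2.37, -2.38 and -2.83, and B16-D-739 had -0.81, -1.07 and -0.96. All arrays of B16-D-735 and of B16-D-739 lay above all those of B16-M, and the latter line also lay above every other melanoma array. Ctsk rose 6.93-fold in B16-D-739 (log2 2.79, SE 0.25, adjusted p = 1.76e-05 by limma) and 2.32-fold in B16-D-735 (log2 1.22, SE 0.25, adjusted p = 0.011). Among the dormant lines it spanned 3.17 (adjusted p = 1.17e-05 by the F-test). Within each of the 3 slides the difference was between 2.75 and 2.87 for B16-D-739 and between 0.75 and 1.57 for B16-D-735. Another background correction, normexp, lowered it to 0.45 in B16-D-735 (adjusted p = 0.124 by limma) and 1.75 in B16-D-739, where it still passed. Leaving out B16-M replicate 1, B16-D-735 replicate 0 or B16-D-735 replicate 1 ended the call in B16-D-735, with changes of 1.12, 1.14 and 1.14.

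Ctsk is also made by macrophages and fibroblasts, and markers of both were examined. Of the 6 macrophage markers, Adgre1, Lyz2 and C1qa were well above the background on no melanoma array, and Cd68 and Csf1r were so on every one. C1qb was so on 2 of 3 arrays of B16-M and of B16-D and on every array of the other melanoma lines. Mean signal of Csf1r was 1.24 in B16-M, 0.91 in B16-D-735 and 0.98 in B16-D-739, and that of Cd68 was -1.80, -2.16 and -1.86. The summed signal of the 6 macrophage markers, on the log2 scale, ran from 0.51 to 1.67 in B16-D-739, from 0.29 to 1.70 in B16-D-735 and from 0.68 to 1.88 in B16-M. That of the 5 fibroblast markers ran from -1.58 to -1.38 in B16-D-739 and from -0.91 to -0.50 in B16-M. It ran from 0.04 to 0.22 in B16-D-735, above B16-M, and 3 of its markers were well above the background there on every array (Col1a1, Col1a2, Pdgfrb), while Col3a1 and Thy1 were so on none. The part of these markers in the Ctsk values of B16-D-735 and B16-D-739 was not tested.

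None of the other cathepsins passed in a dormant line with this scaling, all 23 arrays and no block. Ctsz, a carboxypeptidase named by the study, was 5.37, 5.20 and 5.52 in B16-M, 5.80, 5.43 and 5.30 in B16-D, and 5.21, 5.30, 5.61 and 5.40 in B16-D-733. It was 5.0, 5.26 and 4.77 in B16-D-735 and 5.36, 5.32 and 5.68 in B16-D-739. In leukemia it was 3.24, 3.58, 3.24 and 3.03 in M0-p20 and 3.45, 3.38 and 3.57 in J365-p20. Dormant and parental arrays overlapped in both tumours. Ctsl, a broad-specificity endopeptidase, was 3.97, 3.88 and 4.0 in B16-M and 5.5, 4.23 and 4.13 in B16-D. Its change in B16-D was 0.67 (adjusted p = 0.225 by limma), and 0.23 without B16-D replicate 0, the array at 5.5. With a block for the arrays whose titles carry a date it was 1.17 in B16-D (adjusted p = 0.0146 by limma) and 1.11 in B16-D-733 (adjusted p = 0.0159). That block sets replicate 0 of each of these lines apart from the line's other arrays. In B16-D-733 Ctsl also passed without B16-D replicate 0, at 0.55 (adjusted p = 0.00822 by limma). Ctss was well above the background on no melanoma array used, on 2 of 4 M0-p20 arrays and on 2 of 3 J365-p20 arrays.

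Among the glycosidases and sulfatases, 8 of which were tested in melanoma, none passed against B16-M. Galns, a sulfatase that breaks down keratan sulfate and chondroitin sulfate, was -1.11, -1.10 and -0.64 in B16-M and -0.45, -0.48 and -0.83 in B16-D. The arrays of B16-D-733 gave -0.63, -0.83, -0.56 and -0.76, those of B16-D-735 -1.60, -1.06 and -1.42, and those of B16-D-739 -0.70, -0.65 and -0.16. Every B16-D-735 array was below every array of the other dormant lines, and all lines overlapped with B16-M. The lines spanned 0.86 (adjusted p = 0.0411 by the F-test), a call lost in 15 of 25 alternatives, with adjusted p up to 0.216. In leukemia it was -1.32, 0.11, -0.38 and -0.46 in M0-p20 and -0.61, -0.60 and -0.34 in J365-p20. Neu1, a sialidase, had a change of -0.61 in B16-D-739 (adjusted p = 0.17 by limma).

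Of the 5 genes of the sphingolipid group, 1 fell and 1 rose in a second-generation line. Psap, which encodes the precursor of the saposins that help sphingolipid hydrolases reach their substrates, was 4.12, 3.93 and 3.85 in B16-M and 3.81, 3.25 and 3.12 in B16-D. It was 3.47, 3.20, 3.1 and 3.11 in B16-D-733 and 3.49, 3.31 and 3.39 in B16-D-739. In B16-D-735 it was 4.15, 4.06 and 4.05. All arrays of B16-D, B16-D-733 and B16-D-739 lay below all arrays of B16-M, and those of B16-D-735 overlapped with B16-M. Psap fell 1.68-fold in B16-D-733 (log2 -0.75, SE 0.15, adjusted p = 0.0111 by limma). It was -0.39 (adjusted p = 0.12 by limma) with a block for the arrays whose titles carry a date, which splits B16-D and B16-D-733 only. Its changes in B16-D and B16-D-739 were -0.57 each (SE 0.16, adjusted p = 0.0785 and 0.0853). With the replicate number as a block both passed, at -0.52 in B16-D (adjusted p = 0.0424 by limma) and -0.57 in B16-D-739 (adjusted p = 0.0172). Without B16-D replicate 0 both passed too, at -0.78 in B16-D (adjusted p = 0.00537 by limma) and -0.57 in B16-D-739 (adjusted p = 0.0136). The dormant lines spanned 0.87 (adjusted p = 0.0143 by the F-test). This call was lost without any one of the B16-D-735 arrays, with adjusted p from 0.0674 to 0.0792. In leukemia the arrays overlapped, at 1.85, 2.53, 2.42 and 2.34 in M0-p20 and 2.21, 2.54 and 2.18 in J365-p20.

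Smpd1 encodes acid sphingomyelinase, which turns sphingomyelin into ceramide. It was 4.06, 3.61 and 4.03 in B16-M, 4.53, 3.47 and 3.36 in B16-D, and 3.63, 3.84, 4.0 and 3.83 in B16-D-733. The B16-D-735 arrays gave 5.35, 5.04 and 4.65, above every other melanoma array, and those of B16-D-739 gave 4.23, 3.91 and 4.06. Smpd1 rose 2.17-fold in B16-D-735 (log2 1.12, SE 0.27, adjusted p = 0.0324 by limma), and the dormant lines spanned 1.23 (adjusted p = 0.0306 by the F-test), the latter call being lost in 9 of 25 alternatives. Within each slide the difference from B16-M was between 0.59 and 1.74. Leaving out any one B16-M array, or B16-D-735 replicate 0 or 1, ended the call against B16-M, with changes between 0.95 and 1.2 and adjusted p up to 0.144. In leukemia it was 3.79, 5.74, 5.30 and 5.07 in M0-p20 and 3.36, 3.82 and 3.82 in J365-p20, where M0-p20 replicate 0 lay among the dormant arrays. The change was -1.31 (SE 0.44, adjusted p = 0.505 by limma), and without M0-p20 replicate 0 it was -1.70 (adjusted p = 0.0299). Asah1, the acid ceramidase, had changes of -0.39 in B16-D, -0.40 in B16-D-733 and -0.36 in B16-D-739, none past the threshold.

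**Figure D2:**
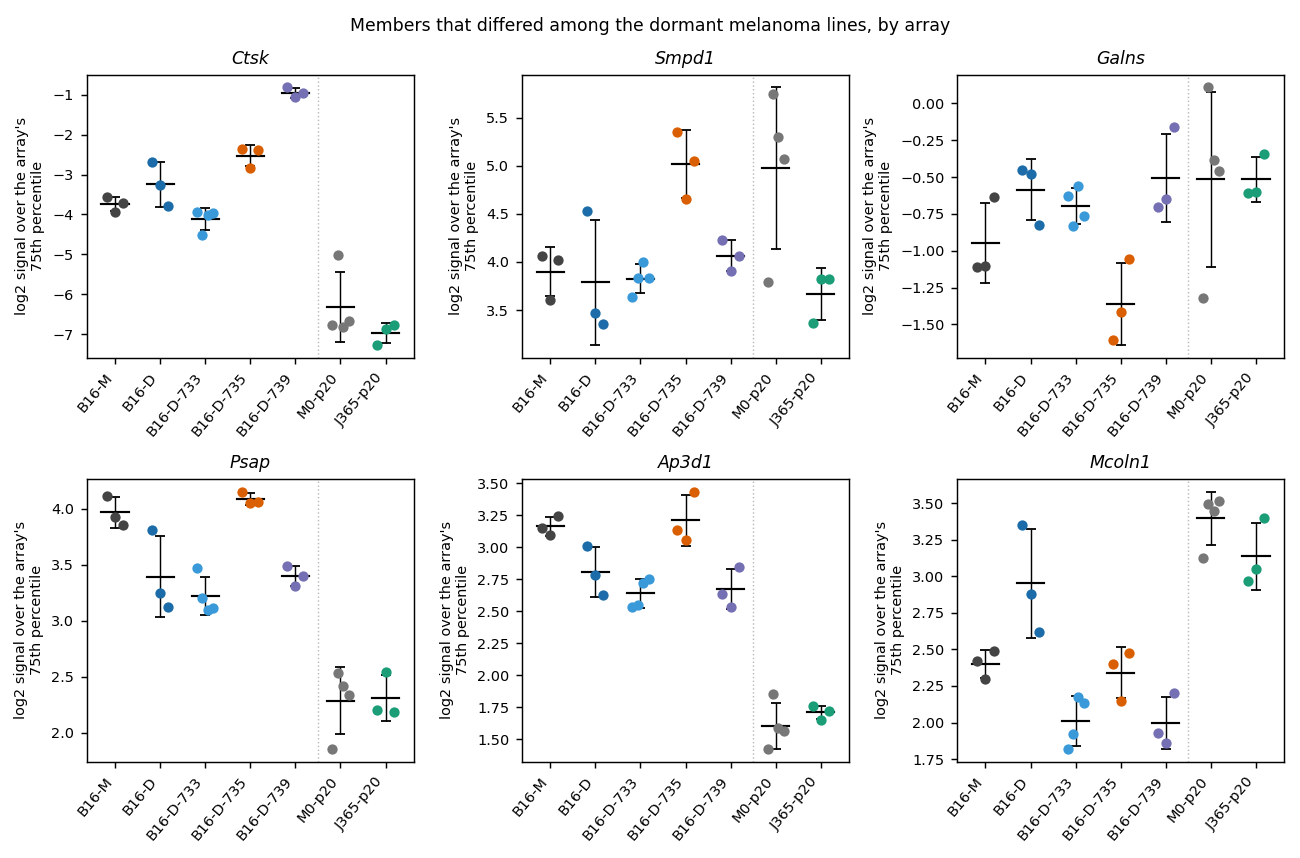
Log2 signal over the array's 75th percentile for the 6 members that differed among the dormant melanoma lines; points are arrays, horizontal lines means and bars 1 SD, and a dotted line parts melanoma from leukemia. The B16-D-735 arrays stand above the other dormant lines in Smpd1, Psap and Ap3d1 and below them in Galns, and the B16-D-739 arrays stand above all others in Ctsk.

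No V-ATPase member passed in any dormant line. Atp6v1h, the regulatory subunit H of the cytosolic sector, was 3.81, 3.57 and 3.77 in B16-M and 4.42, 3.44 and 3.64 in B16-D. It was 3.84, 3.68, 3.51 and 3.25 in B16-D-733, 4.30, 4.14 and 3.98 in B16-D-735, and 3.88, 3.59 and 3.63 in B16-D-739. The B16-D-735 arrays all lay above those of B16-M, with a change of 0.42 (SE 0.22, adjusted p = 0.401 by limma). In leukemia it was 3.25, 3.44, 3.30 and 3.38 in M0-p20 and 3.84, 3.56 and 3.40 in J365-p20. The other changes of the 5 subunits ran from -0.44 to 0.43.

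None of the 14 autophagy genes passed in a dormant line. Their changes lay within 0.5 of the parental level in all 14 of 14 in each dormant melanoma line and in 13 of 13 tested in leukemia. Most genes did so: of all 24312 tested in melanoma, 18944 in B16-D, 20575 in B16-D-733, 20552 in B16-D-735 and 20678 in B16-D-739. In leukemia 19920 of all 22968 did so. Medians of the autophagy genes were 0.03 in B16-D, -0.03 in B16-D-733, 0.08 in B16-D-735, -0.16 in B16-D-739 and 0.06 in J365-p20. Sqstm1, the cargo receptor p62 of selective autophagy, was 6.51, 6.75 and 7.16 in B16-M and 7.38, 6.70 and 6.49 in B16-D. It was 6.55, 6.61, 6.92 and 6.35 in B16-D-733, 7.02, 7.21 and 6.72 in B16-D-735, and 6.57, 6.53 and 6.83 in B16-D-739. The leukemia lines gave 3.04, 4.12, 3.63 and 3.50 in M0-p20 and 3.58, 3.59 and 3.81 in J365-p20. Dormant and parental arrays overlapped in every case.

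Of the 8 sorting genes, only Ap3d1 passed, in B16-D-733 and among the dormant lines. Ap3d1 encodes the delta subunit of AP-3, the coat that carries proteins to lysosomes and melanosomes. It was 3.15, 3.09 and 3.24 in B16-M, 3.01, 2.79 and 2.62 in B16-D, and 2.54, 2.55, 2.72 and 2.75 in B16-D-733. The values were 3.14, 3.43 and 3.06 in B16-D-735 and 2.64, 2.54 and 2.84 in B16-D-739. As for Psap, all arrays of B16-D, B16-D-733 and B16-D-739 were below all of B16-M, while B16-D-735 overlapped. Ap3d1 fell 1.44-fold in B16-D-733 (log2 -0.52, SE 0.13, adjusted p = 0.0295 by limma), and its changes were -0.35 (SE 0.14, adjusted p = 0.197) in B16-D and -0.49 (SE 0.14, adjusted p = 0.0734) in B16-D-739. The lines spanned 0.57 (adjusted p = 0.0469 by the F-test), a call lost in 17 of 25 alternatives, with adjusted p up to 0.233. With the replicate number as a block the adjusted p in B16-D-733 was 0.0656. Leaving out any one B16-M array, or B16-D-733 replicate 0, 1 or 2, also ended that call, with changes between -0.56 and -0.48. Leukemia arrays gave 1.42, 1.85, 1.59 and 1.56 in M0-p20 and 1.76, 1.66 and 1.72 in J365-p20.

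The other AP-3 members, Ap3m1 and Ap3b1, did not pass in any dormant line. Ap3m1, the medium chain, was 3.14, 3.02 and 3.1 in B16-M, 3.15, 2.98 and 3.04 in B16-D, and 3.12, 3.16, 3.04 and 2.87 in B16-D-733. It was 3.31, 3.25 and 3.21 in B16-D-735, above every B16-M array (change 0.17, SE 0.10, adjusted p = 0.464 by limma), and 3.02, 3.08 and 2.93 in B16-D-739. In leukemia Ap3m1 was 2.46, 2.74, 2.60 and 2.56 in M0-p20 and 2.89, 2.71 and 2.66 in J365-p20. Ap1b1, the beta subunit of AP-1, was 4.53, 4.39 and 4.38 in B16-M, 4.74, 4.31 and 4.47 in B16-D, and 4.56, 4.45, 4.21 and 4.48 in B16-D-733. B16-D-735 had 4.72, 4.45 and 4.49 and B16-D-739 had 4.61, 4.5 and 4.54. In leukemia all J365-p20 arrays of Ap1b1 (4.57, 4.52 and 4.30) were above all M0-p20 arrays (4.08, 4.04, 4.15 and 3.94), with a change of 0.41 (SE 0.15, adjusted p = 0.601 by limma). The study listed AP1B1 among proteins higher in its dormant leukemia line whose RNA also rose significantly. Its threshold was a p under 0.05, with no adjustment named, unlike the adjusted one used here.

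Stx7, a SNARE of late endosome fusion, was 3.86, 3.46 and 3.81 in B16-M, 3.93, 3.22 and 3.20 in B16-D, and 3.21, 3.19, 3.38 and 3.11 in B16-D-733. B16-D-735 had 3.96, 3.97 and 3.64, and B16-D-739 had 3.47, 3.19 and 3.45. All B16-D-733 arrays were below those of B16-M (change -0.49, SE 0.18, adjusted p = 0.154 by limma), and the other dormant lines overlapped with it. The leukemia values were 1.54, 2.44, 2.15 and 2.05 in M0-p20 and 1.87, 2.01 and 1.89 in J365-p20. Vps35, the core of retromer, was -0.47, -0.32 and -0.38 in B16-M, -0.56, -0.68 and -0.49 in B16-D, and -0.50, -0.53, -0.59 and -0.52 in B16-D-733. It was -0.32, -0.16 and -0.30 in B16-D-735 and -0.58, -0.61 and -0.49 in B16-D-739. All arrays of B16-D, B16-D-733 and B16-D-739 lay below all those of B16-M, by small steps, with changes of -0.19, -0.14 and -0.17 and adjusted p from 0.336 to 0.47 (limma). In leukemia Vps35 was -0.48, -0.81, -0.79 and -0.67 in M0-p20 and -0.60, -0.69 and -0.47 in J365-p20, which overlap.

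Psap, Ap3d1 and Stx7 share a position: all lie on mouse chromosome 10 (GRCm38.p6), as do Cd63, Atg5 and Vps26a, so 6 of the members measured in melanoma lie there and 48 elsewhere. This grouping was looked at after the values were seen, and its values are given as a description. Over all 689 chromosome 10 genes tested in melanoma the median change was -0.26 in B16-D, -0.23 in B16-D-733 and -0.24 in B16-D-739. The medians of the other chromosomes lay between -0.03 and 0.09, between 0.02 and 0.09, and between 0.005 and 0.08 in these lines. In B16-D-735 chromosome 10 stood at 0.08, within the range of the others, from -0.18 to 0.15.

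The 6 members had lower medians than the members elsewhere in the same lines. The median change of the 6 was -0.31 in B16-D, -0.45 in B16-D-733, -0.35 in B16-D-739 and 0.08 in B16-D-735, while that of the 48 others was 0.02, -0.04, -0.05 and 0.07. In leukemia it was 0.06 for the 6 and 0.07 for the members elsewhere. Array by array, the other 683 chromosome 10 genes had medians from -0.27 to -0.20 in B16-D, from -0.25 to -0.23 in B16-D-733 and from -0.27 to -0.23 in B16-D-739, relative to the B16-M mean. The B16-M arrays themselves ran from -0.07 to 0.06. B16-D replicate 0, on which the members elsewhere had a median of 0.41, had -0.13 for the 6. The shift of the chromosome kept its sign in all 25 alternatives for each line, from -0.28 to -0.17 in B16-D, from -0.27 to -0.20 in B16-D-733 and from -0.28 to -0.18 in B16-D-739. Gene copy number was not measured on these arrays. By comparative genomic hybridization, the study reported deletions of Ap3d1 and Stx7 in dormant but not in parental melanoma cells. It detected the STX7 protein in parental melanoma cells only. The part of copy number in these values was not tested.

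**Figure D3:**
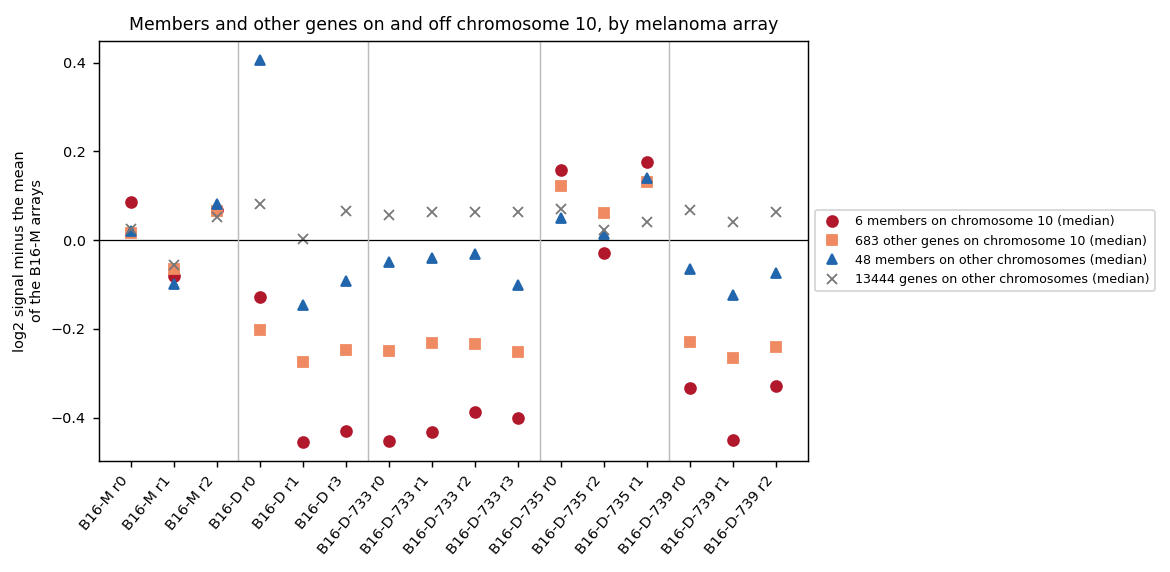
Median log2 signal relative to the B16-M mean on each melanoma array, for the 6 members on chromosome 10, the 683 other genes there, the 48 members elsewhere and the 13444 genes elsewhere. Both chromosome 10 sets lie below 0 on every B16-D, B16-D-733 and B16-D-739 array, and between -0.08 and 0.18 in B16-M and B16-D-735.

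Most members differed between the parental lines of the tumours. For B16-M against M0-p20, 40 of 48 members tested passed (limma), 34 higher in melanoma and 6 lower, beside 51.7% of all genes, of which 21.2% were higher and 30.5% lower. The median difference of the members was 0.76, beside -0.22 over all genes. Higher in melanoma were 4 of 4 cathepsins tested, 4 of 5 V-ATPase subunits, 7 of 8 sorting genes, 4 of 5 membrane proteins and 9 of 13 autophagy genes. Glycosidases were divided, with 3 higher and 2 lower of 7, and neither Tfeb nor Tfe3 passed. Of the 48 members well above the background on every array, all 16 melanoma arrays were above all 7 leukemia arrays in 26, all leukemia arrays were higher in 2 (Glb1, Atg12), and 20 overlapped. The other 7 (Ctsh, Ctsk, Ctsl, Ctss, Arsb, Gm2a, Map1lc3a) were near the background on some arrays or all arrays of a tumour, and their order was not counted. The same count over all genes is not given here, so these counts describe the members only.

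Sqstm1 had the largest difference among members measured in both tumours, 9.42-fold (log2 3.24, SE 0.24, adjusted p = 1.21e-09 by limma). Ctsd, the main aspartic protease of lysosomes, was 6.71-fold higher in B16-M (log2 2.75, SE 0.28) and Lamp2 5.20-fold higher (log2 2.38, SE 0.16). Hexa, a subunit of beta-hexosaminidase, was higher by 2.27, Ctsz by 2.10, Gaa, which breaks down lysosomal glycogen, by 2.08, and the tetraspanin Cd63, a protein of late endosomes and melanosomes, by 1.95. AP-3's delta subunit was higher by 1.55 and its medium chain by 0.49. For its beta subunit Ap3b1 the difference was 0.34, which did not pass.

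Lower in B16-M were Glb1, the lysosomal beta-galactosidase (-1.39, SE 0.19), Atg12, the ubiquitin-like protein of the autophagosome conjugation system (-1.22, SE 0.18), and Smpd1 (-1.08, SE 0.35), whose arrays overlapped. Mcoln1 (-1.0, SE 0.17), Gla (-0.52, SE 0.18) and Atg16l1 (-0.48, SE 0.18) were also lower. Members not well above the background on any M0-p20 array have only a bound there. Ctsl was at least 392-fold higher in B16-M, Ctsh at least 36.7-fold, Map1lc3a at least 32.8-fold, Gm2a at least 8.85-fold and Ctsk at least 1.90-fold, each against the lowest signal well above the background on the array or the probe's own signal, whichever was higher. These genes were left out of the fit over both tumours.

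**Figure D4:**
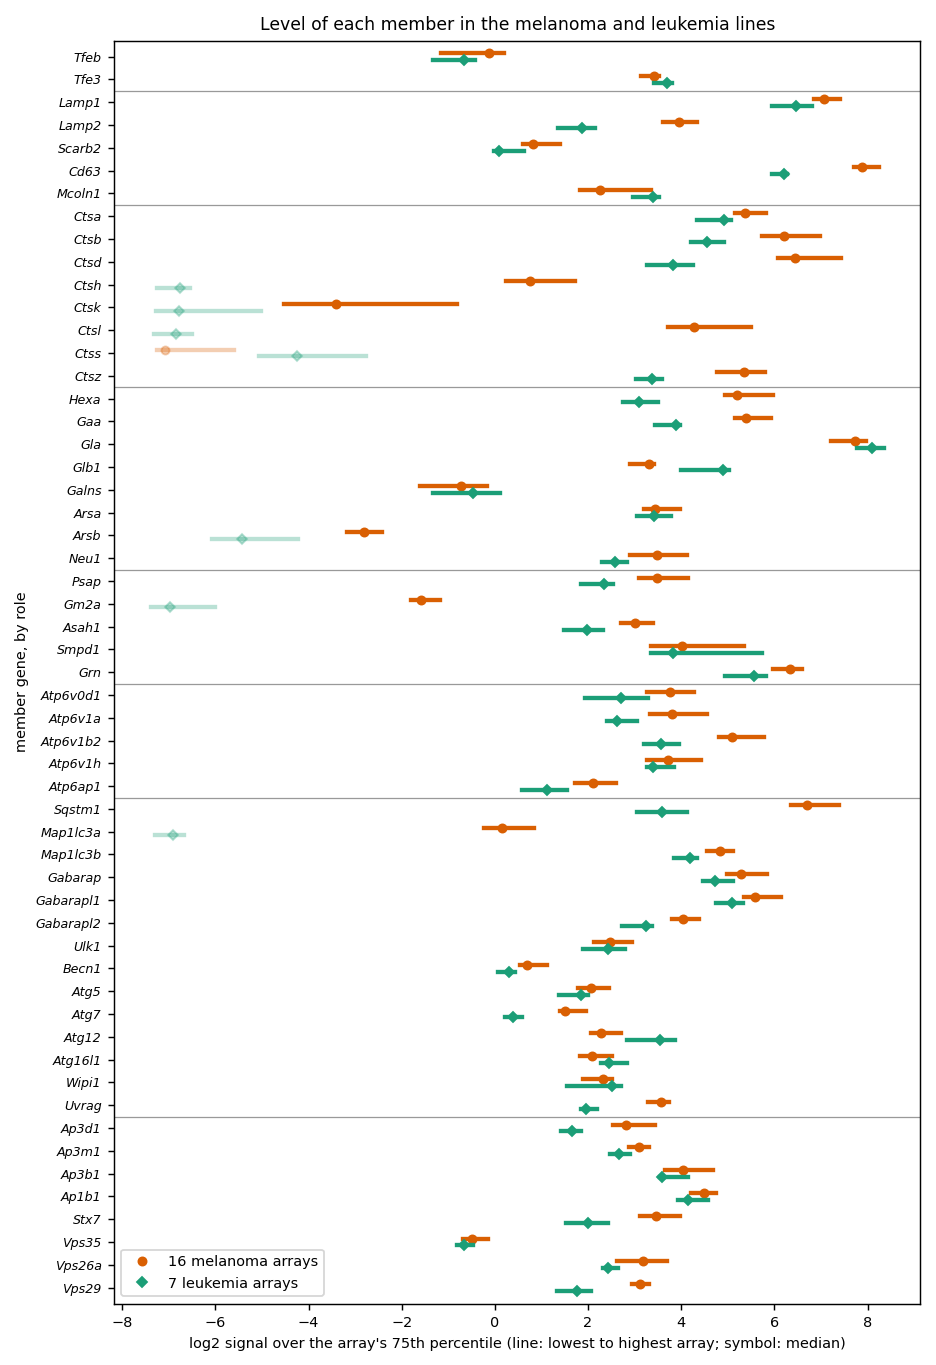
Log2 signal over the array's 75th percentile for each member, with the median as a point and a line from the lowest to the highest array, over 16 melanoma and 7 leukemia arrays. Pale symbols mark a tumour in which the member was not well above the background on every array, and of the 48 members with none, the lines of both tumours overlap for 20.

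Promoters of 44 of the members were searched for CACGTG and related elements in a RefSeq table (GRCm38.p6). The window ran from 250 bases before the start to 50 after it. CACGTG, which reads the same on both strands, stood in 14 of the 44 genes (31.8%), beside 8.09% of 27025 genes in the table. The longer TCACGTGA, which contains it, stood in 7 (15.9%, beside 1.13% of all). TCATGTG, searched on both strands, stood in 5 (11.4%, beside 4.31%). Mcoln1 and Lamp1 are shown as examples that carry CACGTG more than once, as Ctsa, Ctsd, Gla and Vps26a also do. Ctsk is shown because the member with the largest change among dormant lines has none in this window. Capitals mark CACGTG. The Mcoln1 promoter lies at chr8:3500269-3500568, plus strand, with its elements beginning 71 and 45 bases before the start. That of Lamp1 lies at chr8:13158911-13159210, plus strand, with 4 elements, the first beginning 61 and the last 15 bases before it. The Ctsk promoter lies at chr3:95498960-95499259, plus strand.
Mcoln1: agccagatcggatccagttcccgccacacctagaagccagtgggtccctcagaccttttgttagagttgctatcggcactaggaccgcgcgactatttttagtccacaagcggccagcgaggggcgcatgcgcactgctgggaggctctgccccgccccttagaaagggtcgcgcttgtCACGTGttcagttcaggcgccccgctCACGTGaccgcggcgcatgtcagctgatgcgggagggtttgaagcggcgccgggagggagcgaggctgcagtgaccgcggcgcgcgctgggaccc
Lamp1: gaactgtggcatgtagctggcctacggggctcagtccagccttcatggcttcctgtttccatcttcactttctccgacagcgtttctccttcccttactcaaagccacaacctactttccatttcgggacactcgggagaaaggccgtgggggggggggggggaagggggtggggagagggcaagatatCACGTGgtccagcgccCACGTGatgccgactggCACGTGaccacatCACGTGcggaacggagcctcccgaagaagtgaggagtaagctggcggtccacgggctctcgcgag
Ctsk: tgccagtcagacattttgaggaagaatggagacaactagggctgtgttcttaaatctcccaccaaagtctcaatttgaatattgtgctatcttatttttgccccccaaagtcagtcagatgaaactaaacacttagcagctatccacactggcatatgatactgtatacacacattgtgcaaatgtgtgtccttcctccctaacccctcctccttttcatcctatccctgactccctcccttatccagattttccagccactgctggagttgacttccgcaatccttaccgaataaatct
A match of letters is no evidence of binding, which was not measured here.

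Mitf itself, the melanocyte member of the family, was higher in B16-M than in M0-p20 by 5.30 (SE 0.26, adjusted p = 3.68e-12 by limma). Its changes in the dormant melanoma lines were 0.20, 0.16, 0.14 and 0.12, none past the threshold. In J365-p20 it was 2.63, 1.36 and 1.51 against 1.23, 0.73, 0.35 and 0.35 in M0-p20, without overlap (change 1.17, SE 0.37, adjusted p = 0.438 by limma).

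The change with dormancy was then compared between the tumours, as B16-D minus B16-M against J365-p20 minus M0-p20. None of 48 members passed this test of the difference (limma), beside 1.36% of all genes. Unadjusted p-values under 0.05 were found for 7 members, beside 1638 of all 20818 genes. Mcoln1 had the smallest p, with a difference of 0.81 (SE 0.24, adjusted p = 0.15). The median difference of the members was -0.12, beside -0.03 over all genes.

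Other genes of these pathways were tested too, 166 of them in melanoma. In B16-D 4 passed, beside 3.6% of all genes: Hgsnat, Atp6ap2 and Sort1 were lower and Ap3s1 higher. In B16-D-733 5 passed, beside 5.57% of all genes, 2 of them on chromosome 10. In B16-D-735 7 passed, beside 5.03%, in B16-D-739 1, beside 3.71%, and in J365-p20 none did, beside 1.07%. By list, the calls in B16-D were 1 of 41 other lysosome genes, 1 of 14 V-ATPase genes, 0 of 34 autophagy genes, 2 of 57 sorting genes and 0 of 20 genes of mTORC1 and the Rag GTPases.

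Hgsnat, the acetyltransferase of lysosomal heparan sulfate breakdown, passed in every melanoma comparison. It was 5.34, 5.71 and 5.72 in B16-M, 4.94, 4.90 and 5.0 in B16-D, and 5.22, 5.29, 5.11 and 5.25 in B16-D-733. The B16-D-735 arrays gave 6.38, 6.33 and 6.41, above every other, and those of B16-D-739 4.90, 4.92 and 4.95. Hgsnat fell by 0.64 (SE 0.11, adjusted p = 0.00476 by limma) in B16-D, by 0.38 in B16-D-733 and by 0.67 in B16-D-739, and rose by 0.78 in B16-D-735. In leukemia it was 1.40, 1.17, 1.21 and 1.04 in M0-p20 and 1.54, 1.48 and 1.18 in J365-p20. Its change differed between the tumours, by -0.84 (SE 0.17, adjusted p = 0.00988 by limma).

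Atp6ap2, the accessory subunit of the V-ATPase also known as the prorenin receptor, fell by 0.46 in B16-D (SE 0.11, adjusted p = 0.036 by limma), from 2.74, 2.72 and 2.67 to 2.30, 2.20 and 2.26. Sort1, the sorting receptor sortilin, fell by 0.47 (SE 0.10, adjusted p = 0.0174), from 4.77, 4.79 and 4.86 to 4.33, 4.26 and 4.42. Ap3s1, the small subunit of AP-3, rose by 0.42 (SE 0.10, adjusted p = 0.0305), from 2.84, 2.79 and 2.98 to 3.34, 3.30 and 3.23. Dormant and parental arrays of all of these lay apart.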

How the data were processed

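RNA of 24 samples was hybridised to one-colour mouse arrays (1 sample each, 3 slides of 8). The deposited intensities are scanner output: per the file headers, the authors used Agilent Feature Extraction 10.7.3.1, which subtracted the background, and the deposited value table held the same signals on every array. Other deposited columns are flags for background, outliers and saturation (0 saturated spots). The study's methods name GeneSpring and no test or scaling. Here log2 processed signals of the 59305 non-control spots were set relative to each array's 75th percentile, 2468 outlier spots were left out, and the brightest probe stood for a gene. A gene was tested if the scanner software flagged its probe as well above background on 3 or more arrays of the fit, counted within each tumour where a fit spanned both. limma 3.58.1 (R 4.3.3; lmFit, eBayes) was fitted to 16 melanoma arrays, to 7 leukemia arrays, and to all 23 for B16-M against M0-p20 and for the difference between tumours. P-values were Benjamini-Hochberg adjusted over all genes tested, with a threshold of 0.05. B16-D replicate 2 was left out. Scripts were tested on simulated data. Python 3.11.15, pandas 2.3.3 and matplotlib 3.10.9 made the summaries and plots.

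The members, the pathway and marker lists and the rule for naming genes were chosen with earlier results of these data known. Values on every array are given for members past the threshold in a comparison that involves dormant lines and for members the study names, and for other pathway genes past it in B16-D or J365-p20. Same-numbered arrays varied together for B16-D-733 (residual correlations with B16-M 0.52, 0.28 and 0.78) and B16-D-739 (0.69, 0.52 and 0.78). All of these B16-D-739 pairs and 1 of the B16-D-733 pairs shared a slide. Other lines showed no such pairing in all their numbers. Alternatives were quantile scaling, normexp background correction (offset 50, on median signals since the files hold no mean signal), the mean of all probes, no filter, blocks for slide, replicate number and dated titles, 1 fit of all 23 arrays, B16-D replicate 2 put back, and each array left out.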

Additional observations from a re-analysis of the deposited data

Results flagged for a closer look

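Of 28 sets of 4 arrays in which single values were examined, 2 held an array far from the others, where chance gives about 1 in 20: Ctsk was -4.52 on B16-D-733 replicate 1, and -5.02 on M0-p20 replicate 1, where the probe was not well above the background. The dormant melanoma lines differed among themselves, by the F-test of limma, in Ctsk (range of the line means 3.17), Smpd1 (1.23), Mcoln1 (0.95), Psap (0.87), Galns (0.86) and Ap3d1 (0.57). B16-D replicate 2, an array outside the comparisons, had 90.3% of its spots well above the background.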

How the results depend on the processing

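Counts of members called moved by over 1.5 times as follows. With B16-D replicate 2 put back, 1 passed in B16-D, 1 in B16-D-733, 1 in B16-D-735 and 3 among the dormant lines. Under quantile scaling 3 passed in B16-D, 6 in B16-D-733 and 4 in B16-D-739, and under normexp 2 in B16-D-739. Without the filter 1 passed in B16-D-733, 1 in B16-D-735 and 3 among the dormant lines. With slide as a block 1 passed in B16-D, 4 in B16-D-735, 4 in B16-D-739 and 1 (Atg5) in the difference between tumours. With the dated titles as a block 1 passed in B16-D (Ctsl) and 2 in B16-D-739, and the 2 in B16-D-733 were Ctsh and Ctsl in place of Psap and Ap3d1. In 1 fit of all 23 arrays 0 passed in B16-D-735. With the replicate number as a block 1 passed in B16-D, 1 in B16-D-733 and 2 in B16-D-739, and the counts stayed within 1.5 times elsewhere (2 in B16-D-735, 5 among the dormant lines, 0 in J365-p20, 40 in B16-M against M0-p20, 0 in the difference between tumours). Leaving out each array in turn gave 0 to 3 in B16-D, 1 to 6 in B16-D-733, 0 to 5 in B16-D-735, 1 to 4 in B16-D-739, 2 to 14 among the dormant lines, 0 to 1 in J365-p20, 37 to 42 in B16-M against M0-p20 and 0 to 1 in the difference between tumours. The cause was not tested.

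Ctsk in B16-D-739 passed in all 25 alternatives, with changes from 1.75 to 2.88. Changes that turned sign were small and never past the threshold. In B16-D, Sqstm1 was -0.10 with replicate 2, -0.12 under quantile scaling, -0.062 with slide as a block and -0.21 to 0.23 leaving out arrays. Ap3m1 was 0.011 under normexp, 0.12 as the mean of its probes, 0.0008 with the replicate block, 0.049 with the dated titles as a block and -0.075 to 0.011 leaving out arrays. Ap1b1 was -0.039 under quantile scaling and -0.041 to 0.17 leaving out arrays, Atp6v1h -0.025 with replicate 2 and -0.18 to 0.31 leaving out arrays, and Ctsz -0.0064 with replicate 2. In J365-p20, leaving out arrays gave -0.090 to 0.27 for Sqstm1 and -0.29 to 0.009 for Stx7. Members at or near the background, such as Ctss in melanoma, could not be ranked.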
